A study of Mus musculus with 10 samples.

Results

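Myc and 7 genes of the polyamine pathway (Odc1, Amd1, Srm, Sms, Azin1, Oaz1 and Sat1) were followed in naive mouse CD8+ T cells before and after stimulation through the T cell receptor. They were chosen by gene name, with earlier results of these data known, and all 8 are among the 12637 genes of the deposited table. All 8 also passed the filter of a mean of at least 0.5 RPKM (reads per kilobase of transcript, scaled to the reads of the library) that left 12203 genes to test.

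Spleens of female C57Bl/6 mice aged 6 weeks gave the cells. The animals were wild type (WT) or Ikaros-Zn4-/-, a genotype homozygous for a deletion of zinc finger 4 of the lymphocyte transcription factor Ikaros. CD8+ cells high for CD62L and low or negative for CD44 were sorted and used directly (0 min), or stimulated for 30 or 120 min with plate-bound anti-CD3, against the receptor complex, and anti-CD28, against its costimulator. There are 10 libraries, 5 of each genotype: a pair from resting cells, a pair after 30 min and 1 after 120 min. None is from cells kept for 30 or 120 min without the antibodies. Changes with the antibodies and with handling and time in culture therefore cannot be told apart. Both 120 min libraries are numbered replicate 2 in their descriptions. The title of the mutant one gives 1, and that of the WT one gives no number. If both are replicate 2, each comparison with 120 min sets that replicate alone against both, and a difference between the replicates would enter it. The 10 libraries hold 4.50 to 13.3 M reads each as recovered from the steps of the RPKM values. The labels do not say that the libraries of a group come from separate mice, so p-values here reflect the spread among the libraries alone, which may be technical. The labels name no allele other than Ikaros-Zn4-/- and no cell type restriction for it.

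The 5 CD8 T cell markers examined (Cd8a, Cd8b1, Cd3d, Cd3e and Cd3g) summed to 1948 to 2526 RPKM at 0 min, 1287 to 2115 RPKM at 30 min and 469 to 557 RPKM at 120 min, so the markers of the labelled cells fell in the same libraries in which the polyamine genes moved most. The 2 B cell markers of 5 that are in the table summed to 4.47 to 15.1 RPKM, the 3 myeloid markers of 5 to 8.14 to 34.2 RPKM, and the 2 markers of 4 for CD4 and regulatory T cells to 3.0 to 34.9 RPKM, the last mostly Ctla4. Gzma, the 1 natural killer marker of 4 in the table, was at most 0.212 RPKM in WT libraries, with 2 WT libraries at 0, and at 2.10 to 9.28 RPKM in Ikaros-Zn4-/- libraries. None of the 6 erythroid and platelet markers is in the table, nor are Cd4, Foxp3, Csf1r, Cd14, Ncr1, Klrb1c and Klre1. With the others on their lists absent, Gzma, Ctla4 and Il2ra alone do not show that natural killer or CD4 cells were present. All 5 CD8 markers fell at 120 min and 2 of them at 30 min. Among the others Ctla4 rose at 30 min, Cd79b fell at both times, and Cd79a rose and Cst3 fell at 120 min, while in Ikaros-Zn4-/- cells Gzma and Itgam were higher and Cd79b lower. The part of these shifts in the results was not tested, and in bulk RNA a smaller share of cells and less RNA per cell cannot be told apart. Ikzf1, which encodes Ikaros, was at 134 to 171 RPKM in WT and 206 to 263 RPKM in Ikaros-Zn4-/- libraries, a value per gene that does not resolve the deleted exon.

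MYC is a transcription factor that pairs with MAX and binds E-box DNA, and it drives growth, ribosome production and metabolism in dividing lymphocytes. Polyamines (putrescine, spermidine and spermine) are small cations needed for nucleic acid function and translation, and activated T cells are known to build up their pools. ODC1 makes putrescine from ornithine, AMD1 decarboxylates S-adenosylmethionine to provide the aminopropyl donor, and the synthases SRM and SMS use that donor to make spermidine and then spermine. Antizyme, encoded by Oaz1, binds ODC1 and sends it to the proteasome, the antizyme inhibitor AZIN1 relieves ODC1 of antizyme, and SAT1 acetylates spermidine and spermine for breakdown or export. Odc1 is a classic direct target of MYC. Ikaros is known as a repressor and activator of lymphocyte genes that recognises a TGGGAA core.

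After stimulation the members moved apart. Amd1, Odc1 and Azin1 rose at 30 and at 120 min, and Sat1 rose at 30 min. Srm and Sms fell at 120 min on the deposited scale. Myc itself, high in all 10 libraries, did not pass the test in any comparison. Between the genotypes, Odc1 was higher and Sat1 lower in Ikaros-Zn4-/- cells. These calls between genotypes, and that of Sat1 at 30 min, were lost in most of the 10 fits without 1 library.

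**Figure D1:**
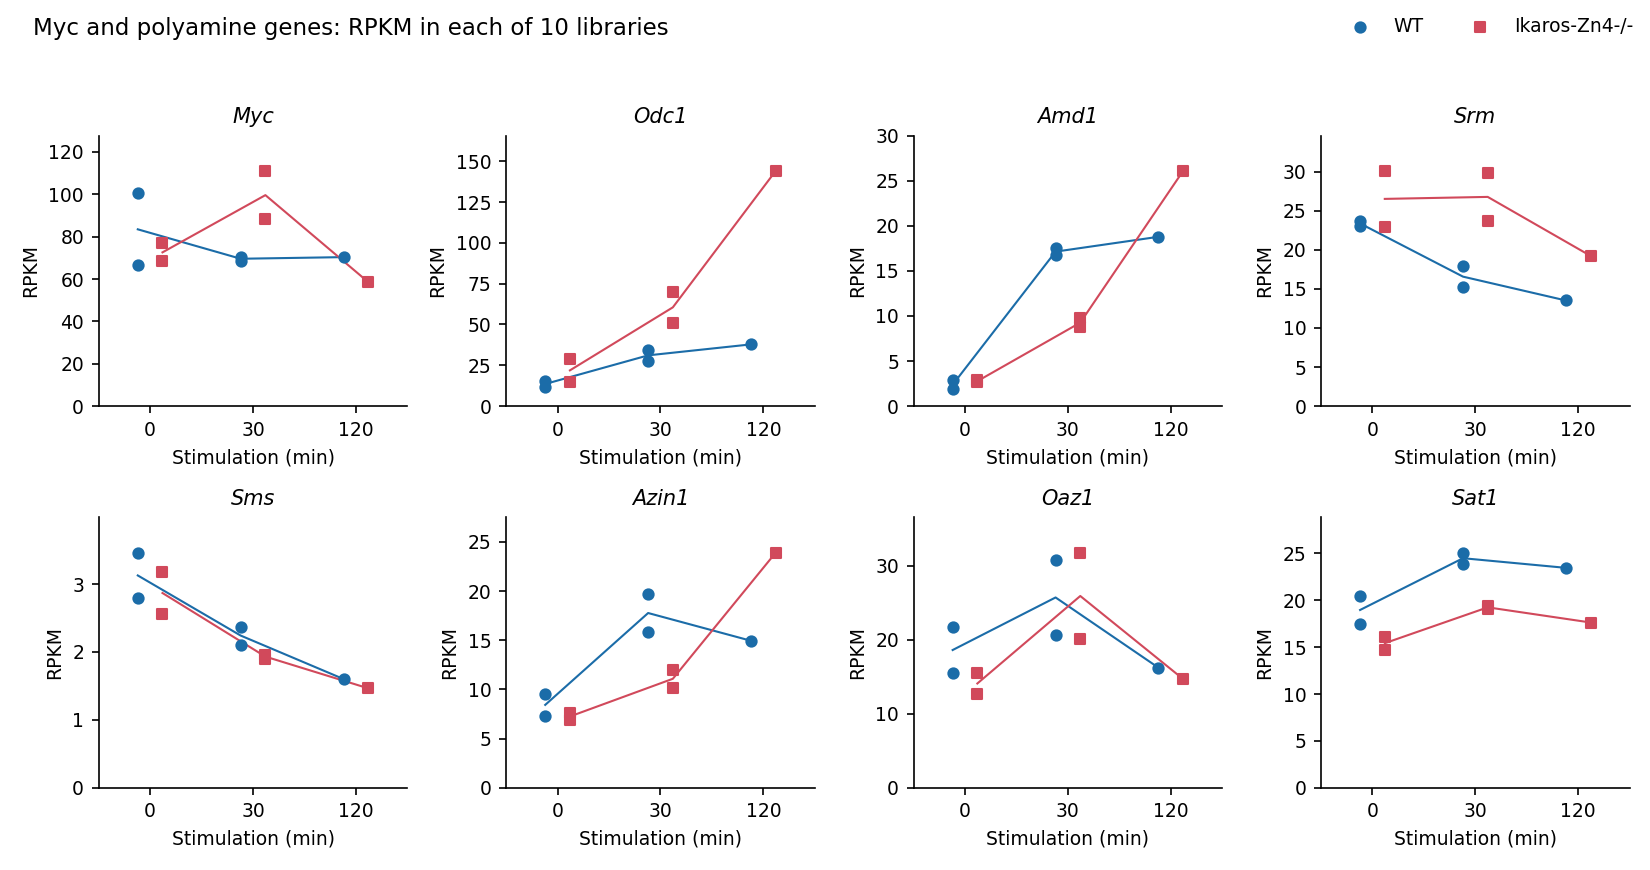
RPKM (linear axes from 0) of the 8 genes in each of the 10 libraries by minutes of stimulation, drawn as 3 evenly spaced categories. Points are libraries (blue circles WT, red squares Ikaros-Zn4-/-) and lines join the group means. Amd1, Odc1 and Azin1 are above all 0 min libraries at 120 min, Srm and Sms below them, and Myc stays between 58.5 and 111 RPKM.

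Myc (chromosome 15, 61985391 to 61990374, plus strand, GRCm38, as for all positions here) had RPKM values of 100.4 and 66.5 in resting WT libraries, 70.6 and 68.6 after 30 min and 70.3 after 120 min. The Ikaros-Zn4-/- libraries had 68.3 and 76.9 at rest, 88.1 and 111 after 30 min and 58.5 after 120 min. The 3 times overlapped, and 1 of the resting WT libraries was higher than every library but 1. Within its library Myc ranked between the 93.8th and the 97.3rd percentile of the table, and its highest value was 1.90 times its lowest.

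By group mean, Myc was highest in Ikaros-Zn4-/- cells at 30 min, then in WT at 0 min, Ikaros-Zn4-/- at 0 min, WT at 120 min, WT at 30 min and Ikaros-Zn4-/- at 120 min. The first neighbours in that order overlap, since the resting WT libraries reach from 66.5 to 100.4 RPKM. Averaged over the genotypes, the log2 change of Myc was 0.11 at 30 min (SE 0.15, adjusted p = 0.643) and -0.26 at 120 min (SE 0.18, adjusted p = 0.264). Its 95% intervals, -0.25 to 0.46 and -0.70 to 0.18, leave room for modest changes in either direction. The sign at 30 min turned to -0.04 without replicate 2 of WT at 0 min, and scaling the libraries by their median ratio turned the 120 min value to 0.15. At 30 min Myc was 1.43 times as high in Ikaros-Zn4-/- as in WT cells by the group means, and at 0 and 120 min it was 0.87 and 0.83 times as high. The genotype difference in the 30 min response was 0.67 on the log2 scale (95% interval -0.04 to 1.39), and its adjusted p was 0.876 (unadjusted 0.0605, limma).

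The enzymes that open the pathway gave the largest increases among the 8 genes. Their upstream sequences, and that of Sms, which fell, are shown so that a reader can see what lies before these genes. They are RefSeq sequences (GRCm38.p6), 5′ to 3′ on the gene's strand, with capitals marking matches to the letters searched: CACGTG (the E-box of MYC and MAX), TGGGAA (the Ikaros core) and GGGCGG (the GC box), each on both strands.
Odc1, chr12:17544623-17544793, plus strand: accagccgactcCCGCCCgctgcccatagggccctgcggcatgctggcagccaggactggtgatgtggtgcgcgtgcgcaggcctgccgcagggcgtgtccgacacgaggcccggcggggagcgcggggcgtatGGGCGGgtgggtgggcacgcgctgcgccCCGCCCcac
Amd1, chr10:40302189-40302438, minus strand: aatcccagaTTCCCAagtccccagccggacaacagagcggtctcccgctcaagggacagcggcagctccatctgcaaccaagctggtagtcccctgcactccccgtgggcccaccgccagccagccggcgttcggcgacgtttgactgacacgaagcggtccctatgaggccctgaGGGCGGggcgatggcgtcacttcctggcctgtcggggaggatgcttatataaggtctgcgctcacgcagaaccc
Sms, chrX:157492288-157492537, minus strand: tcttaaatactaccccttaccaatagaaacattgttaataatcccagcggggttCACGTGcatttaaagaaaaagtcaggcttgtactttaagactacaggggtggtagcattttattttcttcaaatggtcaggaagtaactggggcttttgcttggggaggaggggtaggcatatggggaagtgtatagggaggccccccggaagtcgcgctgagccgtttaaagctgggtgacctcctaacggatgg

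RefSeq windows of 250 bases before the start were at hand for 5 of the 8 genes (Odc1, Amd1, Sms, Oaz1 and Sat1, with 6 windows because Sms has a second start), and Myc, Srm and Azin1 had no entry. The Odc1 window holds 4 GC boxes, of which 3 lie in the 171 bases printed; the other 79 bases are inside the annotated gene and are left out. Amd1 has 1 GC box, 74 bases before its start, and 1 Ikaros core, 241 bases before it. Of the windows not printed, that of Sat1 has 2 GC boxes and that of Oaz1 has no match to the letters searched. The upstream Sms window has 1 E-box, 196 bases before the start, and no GC box. The window of the second Sms start (chrX:157491369-157491618) has 4 GC boxes and no E-box. It lies inside the annotated gene and is not printed. Over all 32851 RefSeq windows of this length the median share of G and C bases is 52.4%, against 80% in the Odc1 window. Of these windows 6.02% hold CACGTG, 21.6% the Ikaros core and 32.7% the GC box. These are letter matches and not binding sites, and a window without a match says only that the letters are not in it.

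Odc1 (chromosome 12, 17544794 to 17551505, plus strand), the ornithine decarboxylase, had RPKM values of 15.5 and 11.6 in resting WT cells, 34.5 and 27.7 after 30 min and 37.8 after 120 min. Ikaros-Zn4-/- libraries had 28.8 and 15 at rest, 69.8 and 51.2 after 30 min and 144 after 120 min. Every stimulated library was above the resting libraries of its own genotype, and only the higher resting mutant library reached into the stimulated WT range. The group means put Ikaros-Zn4-/- at 120 min first, followed by the same genotype at 30 min, WT at 120 min, WT at 30 min, and the resting Ikaros-Zn4-/- and WT cells, whose ranges overlap.

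Odc1 rose by 1.31 log2 units at 30 min (SE 0.22, adjusted p = 0.0112) and by 2.08 at 120 min (SE 0.27, adjusted p = 0.000615). By group means, RPKM rose 2.30-fold in WT and 2.76-fold in Ikaros-Zn4-/- cells at 30 min, against 2.79-fold and 6.59-fold at 120 min. Leaving out replicate 2 of WT at 0 min or replicate 1 of WT at 30 min took the 30 min call just past the threshold (adjusted p = 0.0501 and 0.0504). At 120 min the change was 1.43 from WT cells alone and 2.73 from Ikaros-Zn4-/- cells alone. The 120 over 30 min change of 0.77 missed the threshold (adjusted p = 0.0526), with a 95% interval of 0.12 to 1.41.

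Amd1 (chromosome 10, 40287458 to 40302186, minus strand), the S-adenosylmethionine decarboxylase, was among the lower genes in resting cells, at 2.85 and 1.90 RPKM in WT and 2.62 and 2.91 RPKM in Ikaros-Zn4-/- libraries. After 30 min it read 17.5 and 16.8 RPKM in WT and 9.75 and 8.76 RPKM in Ikaros-Zn4-/- libraries. The single libraries of 120 min had 18.8 (WT) and 26.1 (Ikaros-Zn4-/-). All 6 stimulated libraries lie above the 4 resting ones, and at 30 min both WT libraries lie above both mutant libraries. The Ikaros-Zn4-/- library at 120 min was highest by group mean, then WT at 120 and at 30 min, Ikaros-Zn4-/- at 30 min, and the resting groups, which overlap. About 46 to 851 reads per library lie behind these values, an approximate count, since only 1 of the 10 values of Amd1 came within 0.05 read of a whole number.

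Amd1 rose by 1.94 log2 units at 30 min (SE 0.12, adjusted p = 0.000506), the 77th largest increase of the 12203 genes, and by 2.71 at 120 min (SE 0.14, adjusted p = 3.70e-05), the 43rd. In RPKM, the 30 min mean was 7.23 times the resting mean in WT and 3.35 times in Ikaros-Zn4-/- cells. At 120 min the ratios were 7.92 and 9.44. It was the only member called between 30 and 120 min (0.76, adjusted p = 0.00457). That call comes from the mutant library at 120 min: WT cells alone gave 0.13 and Ikaros-Zn4-/- cells alone gave 1.40.

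Srm (chromosome 4, 148591503 to 148594993, plus strand), the spermidine synthase, had RPKM values of 23.1 and 23.7 in resting WT cells, 15.2 and 17.9 after 30 min and 13.5 after 120 min. The Ikaros-Zn4-/- values were 22.9 and 30.1 at rest, 23.8 and 29.8 after 30 min and 19.2 after 120 min. The WT libraries of the 3 times do not overlap and are lowest at 120 min, while the mutant libraries of 0 and 30 min overlap. By group mean the 3 highest were Ikaros-Zn4-/- at 30 min, Ikaros-Zn4-/- at 0 min and WT at 0 min, which overlap, then Ikaros-Zn4-/- at 120 min and WT at 30 and 120 min.

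Srm fell by 0.59 log2 units at 120 min (SE 0.15, adjusted p = 0.0136), with both 120 min libraries below all resting ones. That call needed the deposited scaling: the median of all genes changed by -0.32 at 120 min, Srm was at -0.27 relative to it, and with median-ratio scaling the change was -0.20 (adjusted p = 0.213). It was also lost without the WT library at 120 min, with -0.43 from Ikaros-Zn4-/- cells alone. At 30 min the value was -0.23 (adjusted p = 0.237).

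Sms (X chromosome, 157443855 to 157492287, minus strand), the spermine synthase, was low in all libraries. Its RPKM values in WT were 2.79 and 3.46 at rest, 2.11 and 2.37 after 30 min and 1.60 after 120 min. Those of Ikaros-Zn4-/- cells were 2.56 and 3.18 at rest, 1.90 and 1.96 after 30 min and 1.46 after 120 min. No 30 min library overlaps the resting ones and no 120 min library overlaps the 30 min ones, while the genotypes lie close together at each time. The order of the group means was WT and Ikaros-Zn4-/- at 0 min (overlapping), WT and Ikaros-Zn4-/- at 30 min, then WT and Ikaros-Zn4-/- at 120 min with 1 library each.

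Sms fell by 0.65 at 120 min (SE 0.15, adjusted p = 0.00795), or -0.34 relative to the median gene, and its -0.37 at 30 min missed the threshold (adjusted p = 0.0768). Its counts are the thinnest beside those of Amd1, at 68 to 205 reads per library. The ratio of Srm to Sms levels in RPKM, which are per length, differed by genotype. In WT libraries it was 8.27 and 6.85 at 0 min, 7.21 and 7.56 at 30 min and 8.45 at 120 min. In Ikaros-Zn4-/- libraries it was 8.97 and 9.48, then 12.5 and 15.2, then 13.1, each above every WT library. Reads on the Sms pseudogene described below are not in these ratios.

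Azin1 (chromosome 15, 38487427 to 38519266, minus strand), the antizyme inhibitor, had RPKM values of 7.35 and 9.52 in resting WT cells, 19.8 and 15.8 after 30 min and 15 after 120 min. Ikaros-Zn4-/- cells had 6.92 and 7.59 at rest, 12 and 10.2 after 30 min and 23.9 after 120 min. All 6 stimulated libraries lie above the 4 resting ones. The mutant library at 120 min is the highest, the WT groups at 30 and 120 min come next, then the mutant at 30 min, and last the resting groups, whose ranges overlap.

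Azin1 rose by 0.77 at 30 min (SE 0.12, adjusted p = 0.00951) and by 1.18 at 120 min (SE 0.15, adjusted p = 0.000560). At 120 min the change was 0.77 from WT cells alone (adjusted p = 0.0257) and 1.60 from Ikaros-Zn4-/- cells alone (adjusted p = 0.00134). Its exons overlap the antisense gene Gm49077, and the library kit does not mark strand, so reads of the pair cannot be told apart. Between 30 and 120 min the value was 0.41 (adjusted p = 0.0599), with -0.23 from WT cells alone and 1.05 from Ikaros-Zn4-/- cells alone.

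Oaz1 (chromosome 10, 80826656 to 80829290, plus strand), antizyme 1, had RPKM values of 21.7 and 15.5 in resting WT cells, 30.8 and 20.6 after 30 min and 16.2 after 120 min. The Ikaros-Zn4-/- libraries gave 15.5 and 12.7 at rest, 31.8 and 20.1 after 30 min and 14.7 after 120 min. In each of the 4 groups with 2 libraries replicate 1 is above replicate 2, and 30 min overlaps 0 min across the genotypes. The 30 min groups have the highest means, and the other 4 groups follow between 14.1 and 18.6 RPKM without separating. Neither the 0.62 at 30 min (SE 0.20, adjusted p = 0.0741) nor the -0.05 at 120 min (SE 0.25, adjusted p = 0.869) passed the test.

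A row closely related to Oaz1 in sequence holds a higher value. The processed pseudogene Oaz1-ps, 92.1% of whose 50-base words also occur in Oaz1 transcripts, is listed at 102 to 202 RPKM, against 12.7 to 31.8 RPKM for Oaz1. Weighted by length and added to Oaz1, its signal raised the Oaz1 level by 143% to 327%, to 42.8 to 85.8 RPKM. With these reads added, an alternative chosen after seeing the data, Oaz1 rose by 0.52 at 30 min (SE 0.11, adjusted p = 0.0202) and fell by 0.49 from 30 to 120 min (SE 0.13, adjusted p = 0.0194). The 120 min level was then close to the resting one (0.03, adjusted p = 0.860). The sources used here do not say how the authors assigned reads that match more than 1 place.

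The same question applies to Sms and Odc1. A processed pseudogene of Sms, listed in the table as Gm14680 and all of whose 50-base words occur in Sms, is at 7.44 to 14.2 RPKM, and adding it raised Sms by 62.7% to 132%. The 120 min decrease of Sms remained (-0.60, adjusted p = 0.0102) and its 30 min value moved to -0.25 (adjusted p = 0.180). For Odc1, 5 pseudogenes in the table (Gm17709, Gm14928, Gm9115, Gm7278 and Gm15470) added 2.83% to 6.57%, and the changes were 1.30 at 30 min (adjusted p = 0.010) and 2.07 at 120 min (adjusted p = 0.000516). With them the 120 over 30 min change of Odc1, 0.77, passed the threshold (adjusted p = 0.0460). Amd1 shares words with its near-copy Amd2 (85.7% of the words of Amd2) and with 6 pseudogenes, counting genes that share at least 10% of their words. None of these 7 genes is in the table, so reads that could belong to either were not examined.

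**Figure D2:**
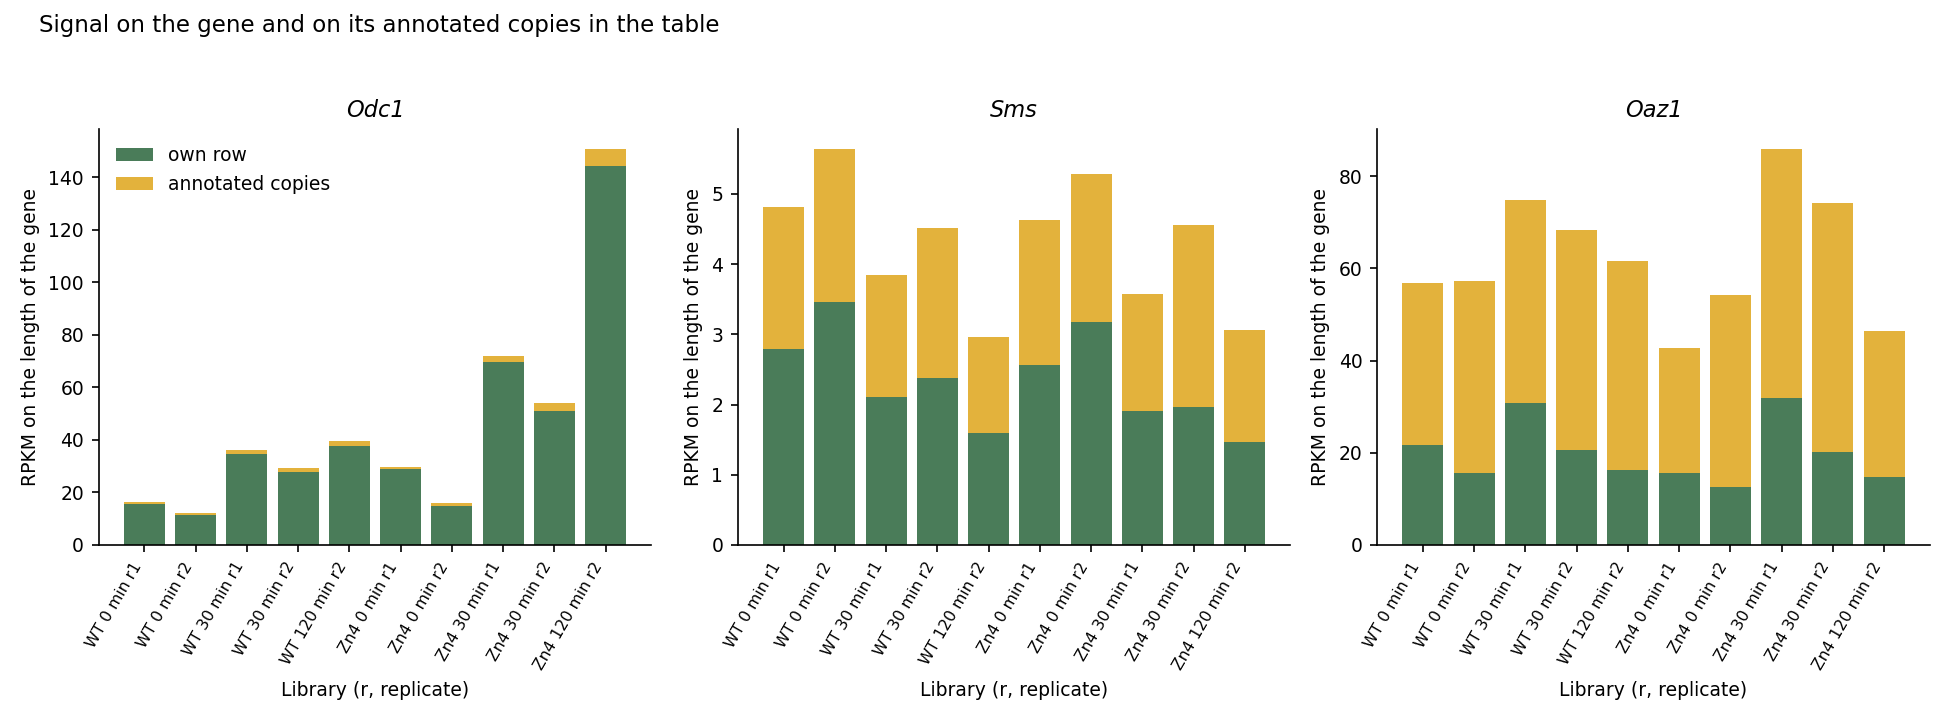
RPKM on the member's own row (green) and, stacked above it, the RPKM of its annotated copies in the table rescaled to the member's length (yellow), for Odc1, Sms and Oaz1 in each of the 10 libraries (linear axes from 0). For Oaz1 the copy carries more signal than the gene in every library, for Sms 62.7% to 132% as much, and for Odc1 at most 6.57%.

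Sat1 (X chromosome, 155213132 to 155216449, minus strand), the spermidine and spermine acetyltransferase, had RPKM values of 20.4 and 17.5 in resting WT cells, 23.9 and 25.1 after 30 min and 23.5 after 120 min. Ikaros-Zn4-/- cells had 16.1 and 14.7 at rest, 19 and 19.4 after 30 min and 17.6 after 120 min. At each time every WT library is above every mutant library, and in each genotype the stimulated libraries are above the resting ones. By group mean the order was WT at 30 min, WT at 120 min, Ikaros-Zn4-/- at 30 min, WT at 0 min, Ikaros-Zn4-/- at 120 min and Ikaros-Zn4-/- at 0 min, and the resting WT range spans the 2 stimulated mutant groups.

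Sat1 rose by 0.33 at 30 min (SE 0.088, adjusted p = 0.0421). The call was lost in 8 of 10 fits that each left out 1 library, all but those without a 120 min library, with changes between 0.28 and 0.38 and adjusted p up to 0.137. At 120 min its 0.24 missed the threshold (adjusted p = 0.0925), but relative to the median gene it was 0.56, and with median-ratio scaling the change was 0.63 (adjusted p = 0.00370).

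At 30 min, 4 members were thus higher, none lower and 4 not called, where 19% of all genes tested were called, 6.51% as higher and 12.5% as lower. At 120 min 3 were higher, 2 lower and 3 not called, against 59.7% of all genes, 19.3% as higher and 40.4% as lower. Between 30 and 120 min 1 member was called, as higher, against 48.2% of all genes, 16.9% as higher and 31.3% as lower. Members whose libraries did not overlap between the times numbered 3 at 30 min (Amd1 and Azin1 higher, Sms lower), where 6.92% of all genes were wholly higher and 15% wholly lower. At 120 min there were 5 (Amd1, Odc1 and Azin1 higher, Srm and Sms lower), against 22.1% and 43.3% of all genes. Between 30 and 120 min there were 3 (Amd1 higher, Sms and Oaz1 lower), against 20.3% and 36.4%. The median change of all genes was -0.13 at 30 min, -0.32 at 120 min and -0.22 from 30 to 120 min, and relative to it the median member stood at 0.61, 0.41 and 0.03. With median-ratio scaling the calls over all genes shifted from 794 higher and 1523 lower to 1118 and 836 at 30 min, from 2356 and 4935 to 3635 and 3659 at 120 min, and from 2065 and 3820 to 3139 and 3043 between 30 and 120 min. Relative to the median gene, Amd1 was at 2.08 and 3.02, Odc1 at 1.45 and 2.40 and Azin1 at 0.90 and 1.5 at 30 and 120 min.

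**Figure D3:**
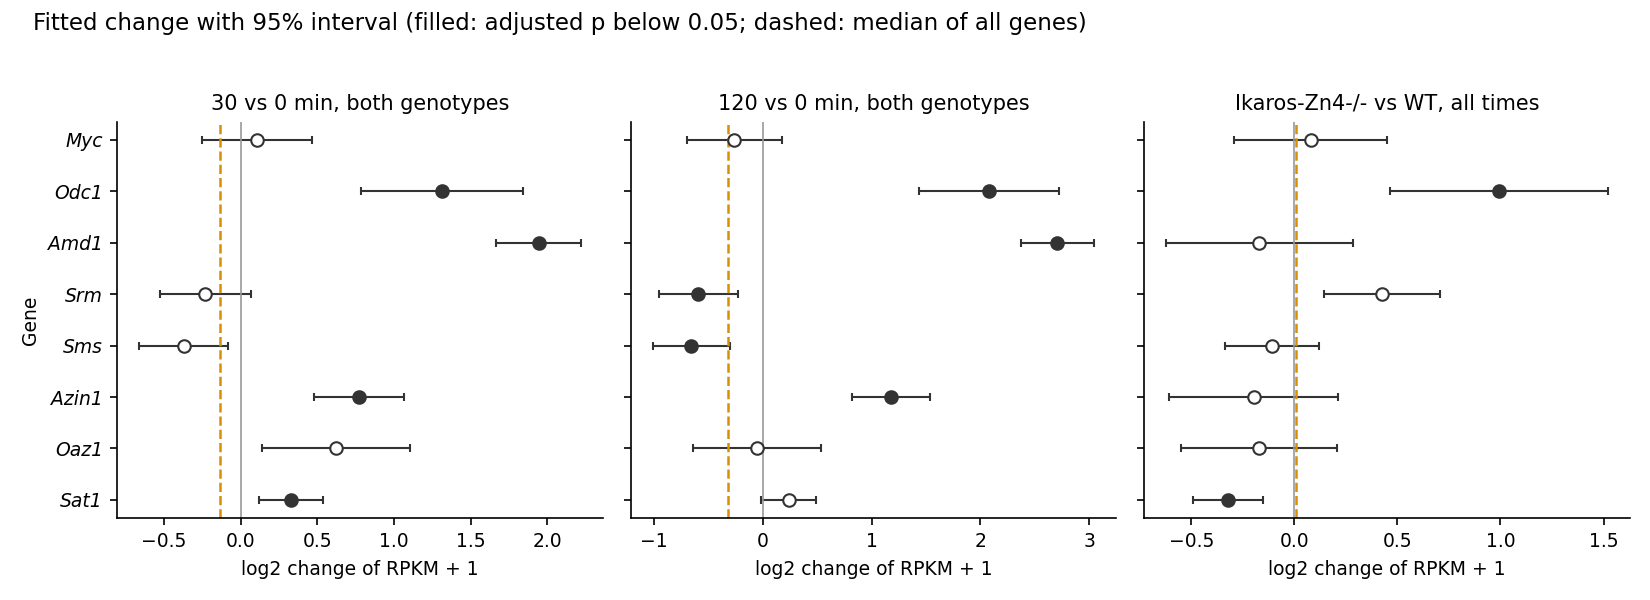
Fitted log2 change of RPKM + 1 (x axis) for the 8 genes (y axis) at 30 and 120 min, averaged over the genotypes, and for Ikaros-Zn4-/- against WT over all times, with 95% intervals. Filled points passed adjusted p below 0.05, the grey line is 0 and the dashed line the median of all genes. Amd1 and Odc1 stand farthest to the right at both times, and Odc1 is the rightmost in the genotype comparison, at 0.99.

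Across all times, Odc1 was higher in Ikaros-Zn4-/- than in WT cells by 0.99 log2 units (SE 0.23, adjusted p = 0.0293), and Sat1 was lower, at -0.32 (SE 0.075, adjusted p = 0.0280). These are 1 of 8 members in each direction, where 9.42% of all genes were called, 6.19% as higher and 3.24% as lower. Over all times no member separated the genotypes without overlap, which 2.7% of all genes did as higher and 0.844% as lower. The RPKM of Odc1 in the mutant was 1.62 times that of WT at 0 min, 1.95 times at 30 min and 3.81 times at 120 min by group means, with overlapping libraries at 0 min only. Neither call was firm over the 10 fits without 1 library. Odc1 lost it in 7, with adjusted p up to 0.0779, and kept it without replicate 1 of WT at 0 min, replicate 2 of Ikaros-Zn4-/- at 0 min or replicate 2 of Ikaros-Zn4-/- at 30 min. Without either 120 min library the Odc1 difference was 0.76. Sat1 lost its call in 8, with adjusted p up to 0.0774, and kept it without replicate 2 of WT at 0 min or replicate 1 of Ikaros-Zn4-/- at 0 min. The Gzma levels above differ between the same libraries, and their part in the result was not tested.

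The other 6 members were not called between genotypes. Srm was nearest, at 0.42 (SE 0.13, adjusted p = 0.0679, 95% interval 0.14 to 0.70). The values of Myc, Amd1, Sms, Azin1 and Oaz1 were 0.08, -0.17, -0.11, -0.20 and -0.17, with adjusted p from 0.573 to 0.822.

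Whether the genotypes respond differently was tested directly, and limma called none of the 8 genes and none of the 12203 genes at either time, 0% of all genes, while 656 genes at 30 min and 661 at 120 min had an unadjusted p below 0.05. The same model on recovered reads (limma-voom) also called none, with 758 and 628 genes below 0.05 unadjusted. Amd1 had the clearest difference of the 8 at 30 min, -0.996 log2 units (95% interval -1.55 to -0.443), a lower response in the mutant, with an unadjusted p of 0.00374 and an adjusted p of 0.876. At 120 min Odc1 (1.30, 95% interval 0.01 to 2.59, adjusted p = 0.919) and Azin1 (0.83, 95% interval 0.11 to 1.54, adjusted p = 0.892) had intervals above 0 before adjustment. Measured from 30 instead of 0 min, an alternative chosen after seeing the data, the genotype difference in the change to 120 min was 1.28 for Amd1 and 1.28 for Azin1 (adjusted p = 0.644 for both) and 0.97 for Odc1 (adjusted p = 0.766). With 1 library of each genotype at 120 min, the fit takes its spread from the other times.

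Of the 8 partners and antagonists of MYC that were tested, 4 rose and 1 fell at 120 min, where 19.3% of all genes were called higher and 40.4% lower. At 30 min 1 rose and 1 fell, where the shares were 6.51% and 12.5%. Called in either direction, 5 of 8 is near the share of all genes at 120 min (59.7%) and 2 of 8 near that at 30 min (19%). Relative to all genes, their median change at 120 min was 0.70, and at 30 min it was 0.09. Max, the common dimer partner, was not called at 120 min (0.29, adjusted p = 0.151): it read 47.7 to 66.8 RPKM at 0 min, 49.3 to 63.0 RPKM at 30 min and 70.4 and 70.0 RPKM at 120 min. Mxi1, which competes with MYC for MAX, went from 1.78 to 3.16 RPKM at 0 min to 13.9 RPKM in WT and 9.84 RPKM in Ikaros-Zn4-/- cells at 120 min (1.88, adjusted p = 9.63e-05). Mnt, another MAX-binding repressor, went from 10.7 to 16.0 RPKM to 55.1 and 39.7 RPKM (1.70, adjusted p = 0.000493).

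Mxd1, of the same antagonist family, rose earlier, from 7.43 to 9.81 RPKM at 0 min to 17.4 to 30.2 RPKM at 30 min (1.40, adjusted p = 0.00420), and stood at 1.57 at 120 min (adjusted p = 0.000645). Mxd4 was also called at 120 min (0.49, adjusted p = 0.00460). Its change from Ikaros-Zn4-/- cells alone, without the WT library at 120 min, was 0.08. Mlx, a MAX-like partner of the glucose-sensing Mondo proteins, fell by 0.64 at 30 min (adjusted p = 0.0239, lost in 5 of the 10 fits without 1 library) and by 1.64 at 120 min (adjusted p = 0.000227). The level of Mxi1 relative to Max was 0.037 to 0.051 at 0 min and 0.141 to 0.197 at 120 min, and that of Myc relative to Max 0.996 to 1.77 at 0 min and 0.836 to 0.999 at 120 min. Mxi1 was the 1 network gene of 8 called between genotypes, where 9.42% of all genes were called. It was lower in the mutant (-0.47, adjusted p = 0.0209), a call lost in 5 of the 10 fits without 1 library.

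Among 11 cofactors and turnover factors of MYC, 1 rose and none fell at 30 min, and 4 rose and 2 fell at 120 min. Called in either direction, 6 of 11 is near the 59.7% of all genes at 120 min, and 1 of 11 is below the 19% at 30 min. The risers at 120 min were Usp36 (0.84) and Usp28 (0.53), both deubiquitinases that stabilise MYC, Zbtb17 (0.83), the MIZ1 partner in repression, and Fbxw7 (0.54), the ubiquitin ligase subunit that marks MYC for destruction. Fbxw7 was also the gene called at 30 min (0.58, adjusted p = 0.0359), and at each time its call was lost in 7 of the 10 fits without 1 library. Usp28 lost its call without the mutant library at 120 min, with 0.26 from WT cells alone. The decreases of Ruvbl1 (-0.46) and Trrap (-0.41), chromatin cofactors, were -0.15 and -0.09 relative to the median gene, and neither was called with median-ratio scaling. Usp28 was lower in Ikaros-Zn4-/- cells, at 17.4 to 33.9 RPKM against 38.6 to 46.9 RPKM in WT (-0.999, adjusted p = 0.000821).

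Of 21 textbook MYC targets, 3 rose and 2 fell at 30 min, where 6.51% of all genes were called higher and 12.5% lower. At 120 min 6 rose and 9 fell, counts near the shares of all genes (19.3% and 40.4%). Their median relative to all genes was -0.00 and 0.30. The largest increases at 120 min were those of Hk2, a hexokinase (2.44), Tfrc, the transferrin receptor (1.28), and the nucleolar proteins Gnl3 (0.99) and Ncl (0.96). The largest decreases were those of Cdk4, a G1 kinase (-1.58), and Cad, the first enzymes of pyrimidine synthesis (-1.54). Next came Shmt2 of mitochondrial folate metabolism (-1.03) and the chaperonin Hspe1 (-1.01). Hspe1 lost its call without the WT library at 120 min, with -0.51 from Ikaros-Zn4-/- cells alone. At 30 min Tfrc (1.11), Gnl3 (0.65) and Ncl (0.51) rose while Ccnd2 (-0.94) and Cdk4 (-0.41) fell, though Ncl and Cdk4 lost their calls in 4 and 7 of the 10 fits without 1 library. Between the genotypes 5 of 21 were higher in the mutant and none lower, where 6.19% of all genes were called higher and 3.24% lower. Among the 5 were Hk2 (1.05), Nme1 (0.59), Pa2g4 (0.53) and Cdk4 (0.45), and of these 4 only Pa2g4 kept its call in all 10 fits without 1 library.

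Ornithine, the substrate of ODC1, is made and used by several enzymes. Oat, the ornithine aminotransferase, went from 15.3 to 24.2 RPKM at 0 min to 35.2 to 56.2 RPKM at 30 min (1.25, adjusted p = 0.00466) and to 97.3 and 129 RPKM at 120 min (2.44, adjusted p = 8.44e-05). The mitochondrial ornithine carrier Slc25a15 fell by 0.42 at 30 min and rose by 0.49 at 120 min, and the cationic amino acid transporter Slc7a1 rose by 0.47 at 120 min. The 30 min call of Slc25a15 was lost in 8 of the 10 fits without 1 library, and its 120 min call without either 120 min library. Slc7a1 lost its call without the WT library at 120 min, with 0.28 from Ikaros-Zn4-/- cells alone. Of the 6 genes tested in this list 1 rose and 1 fell at 30 min and 3 rose at 120 min, against 6.51% of all genes higher and 12.5% lower at 30 min and 19.3% higher at 120 min. Ass1, the argininosuccinate synthase, separated the genotypes at every time, with 1.94 to 2.74 RPKM in WT and 6.73 to 10.1 RPKM in Ikaros-Zn4-/- libraries (1.59, adjusted p = 2.21e-05), and its adjusted p stayed at or below 0.000196 in every alternative run.

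On the side of the aminopropyl donor, none of 9 genes of S-adenosylmethionine supply and methionine salvage rose at 30 min and 2 fell, Mtr (-0.54) and Mat2b (-0.48, lost in 3 of the 10 fits without 1 library), where 12.5% of all genes were called lower. At 120 min 1 rose, Ahcy, the hydrolase of S-adenosylhomocysteine (0.52), and 4 fell, which is near the 40.4% of all genes called lower. Those were Adi1 (-1.07) and Mri1 (-0.59) of the salvage route, Mtr (-0.82), the methionine synthase, and Mat2b (-0.48), a regulatory subunit of the synthetase. Ahcy lost its call in 6 of the 10 fits without 1 library. Adi1 and Mat2b lost theirs without the mutant library at 120 min, with -0.74 and -0.26 from WT cells alone. With median-ratio scaling Mri1 (-0.21, adjusted p = 0.105) and Mat2b (-0.09, adjusted p = 0.437) were not called at 120 min. Mat2a, the catalytic subunit, was not called and is given because it makes the substrate of AMD1: it ranged from 37.7 to 49.3 RPKM over the 10 libraries.

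Smox, which oxidises spermine, rose at both times (0.41, adjusted p = 0.0454, and 0.57, adjusted p = 0.00914) and was lower in Ikaros-Zn4-/- cells (-0.56, adjusted p = 0.0124). Its levels were 4.30 to 7.09 RPKM in WT and 2.21 to 4.27 RPKM in the mutant, and without 1 library its 30 min call was lost in 8 of 10 fits. Of the 8 further polyamine genes listed, only Smox and Oaz2 are in the table. Of 3 transport genes tested, Slc3a2, a subunit of amino acid transporters linked to polyamine export, went from 36.7 to 45.6 RPKM at 0 min to 64.2 to 95.9 RPKM at 30 min (1.00, adjusted p = 0.00267) and 125 and 128 RPKM at 120 min (1.62, adjusted p = 8.28e-05). Atp13a2, a lysosomal polyamine exporter, fell at 120 min (-1.45, adjusted p = 0.00165). None of the 3 hypusine genes (Eif5a, which carries the spermidine-derived residue, Dhps and Dohh) was called at either time. Of all genes 19% were called at 30 min and 59.7% at 120 min.

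**Figure D4:**
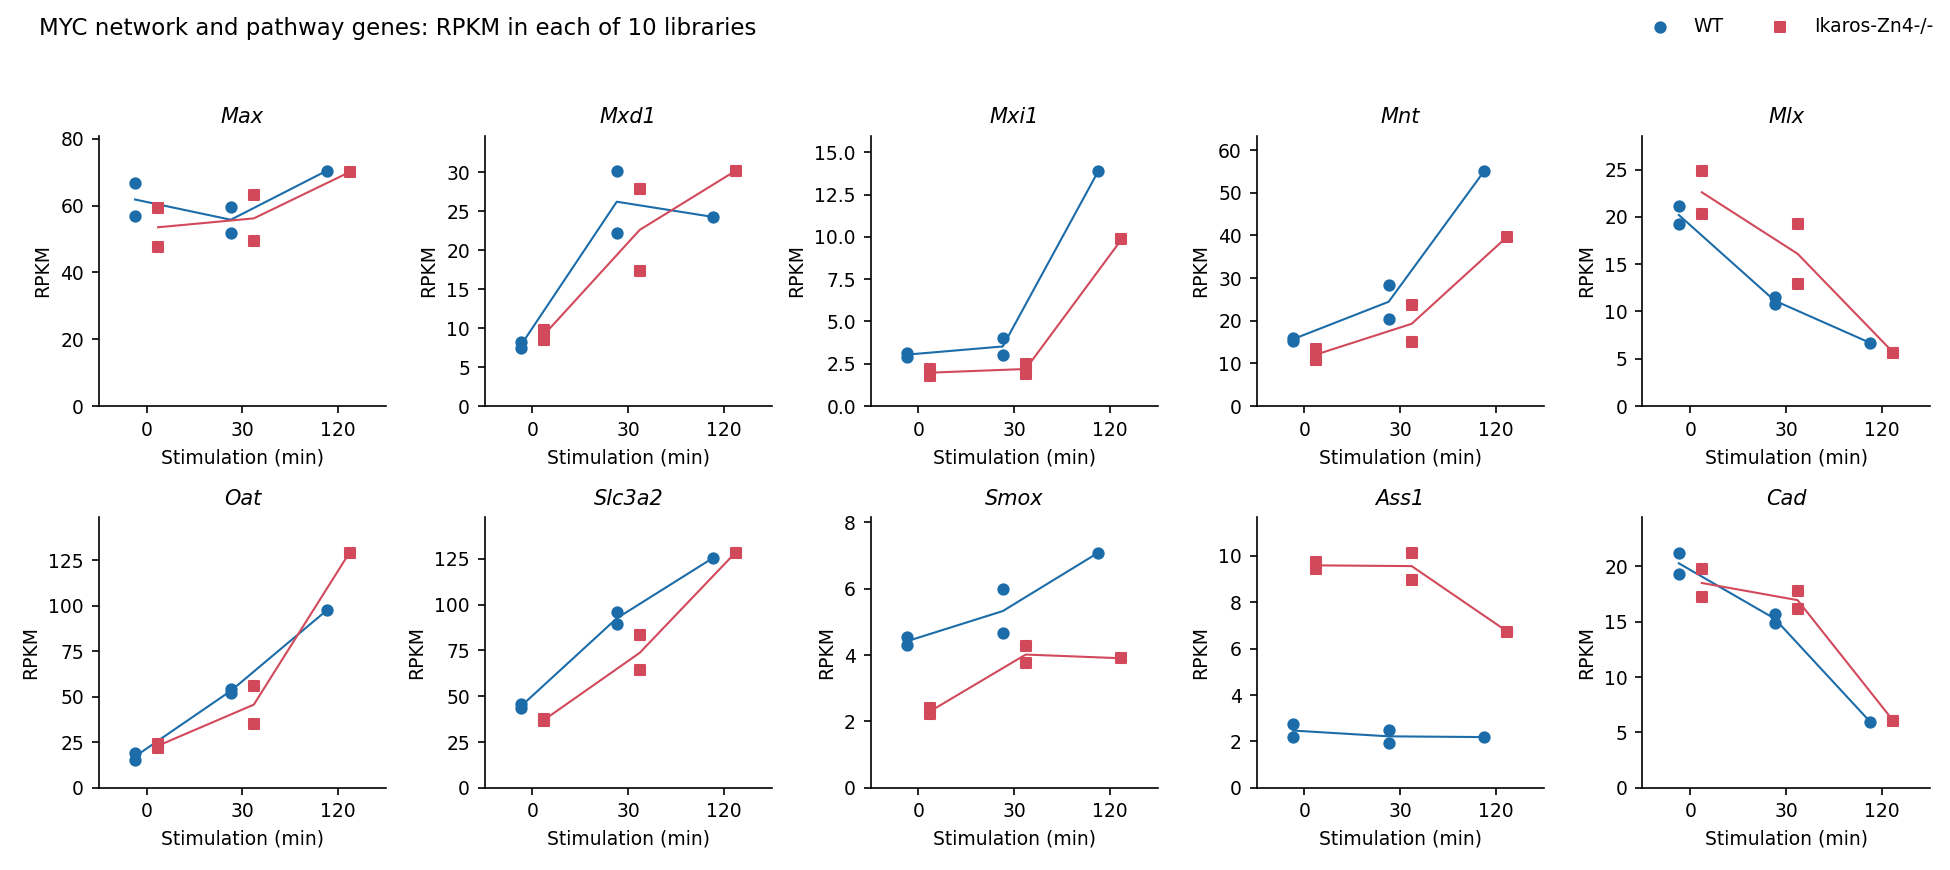
RPKM (linear axes from 0) of 5 MYC network genes, 4 genes around the polyamine pathway and the MYC target Cad in each of the 10 libraries, by minutes of stimulation as evenly spaced categories. Points are libraries (blue circles WT, red squares Ikaros-Zn4-/-) and lines join the group means. Mxi1, Mnt, Oat and Slc3a2 are highest at 120 min, Mlx and Cad lowest there, and Ass1 is above 6 RPKM in all mutant and below 3 RPKM in all WT libraries.

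Genes with the pattern most like that of Myc and Odc1 were found by the root mean square difference of log2(RPKM + 1), centred on each gene's mean over the 10 libraries. For Myc these were Rhbdd3 (0.13), Lrrfip2 (0.15), Psmd9 (0.15), Apom (0.16) and Amt (0.16), where the spread of Myc about its own mean was 0.27, and Odc1 stood at 1.09 from it. For Odc1 they were Crip2 (0.36), Gm7457 (0.39), Gm7278 (0.41), Lmna (0.42) and Prdm1 (0.42), with a spread of Odc1 itself of 1.0. Gm7278 is a pseudogene that shares 21% of its 50-base words with Odc1. Of the other members, Srm was nearest to Myc (0.31), a difference larger than the spread of Myc itself. Amd1 (0.76) and Azin1 (0.77) were about equally near to Odc1.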

How the data were processed

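RPKM values per gene in 10 libraries were analysed as the authors deposited them. Per the submitters' processing notes TopHat2 2.0.12 and HTSeq 0.6.1 were used with builds mm10 and GRCm38, and per the labels' protocols the libraries were single-end TruSeq. Their settings, and the handling of reads with several matches, were not stated. The table lists 12637 genes, each with a group mean of at least 1.00 RPKM somewhere, and 12203 with a mean of at least 0.5 RPKM were tested. limma 3.58.1 (R 4.3.3) was fitted to log2(RPKM + 1) with 1 mean per group, and with genotype plus time for Ikaros-Zn4-/- against WT; tests are two-sided, Benjamini-Hochberg adjusted over all genes, called below 0.05. Fold changes on this scale understate those of low genes.

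Depth was recovered from the steps of the RPKM values with GENCODE M21 exon lengths. Of values below 200 reads, 65.8% to 71.2% came out whole within 0.01 read, where 2% would by chance. Reads summed over the table came to 94.0% to 101% of the recovered depth, above it in 5 libraries. Within 0.05 read of a whole number lay all 10 values of Srm, Sms, Oaz1 and Sat1, 3 of Myc, 1 of Amd1 and 0 of Odc1 and Azin1. The scripts were tested on simulated data. The 8 genes and the lists were chosen with earlier results of these data known. Named are the 8 members, up to 4 called genes per list and direction, and the 5 genes most like Myc and Odc1. Alternatives were another pseudocount, no filter, median-ratio scaling, a replicate block, limma-voom on recovered reads, leaving out each library, and 2 chosen after seeing the data.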

Additional observations from a re-analysis of the deposited data

How the results depend on the processing

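Each of the 8 genes was refitted in all 6 comparisons, giving 730 values. Outside the fits without 1 library, 237 kept their direction and side of the threshold, 17 passed it where the value reported did not, 2 no longer passed it and 10 changed sign. In the fits without 1 library the numbers were 414, 7, 27 and 16. None of the 52 results on named list genes changed sign, and 8 of their values under other settings and 99 without 1 library lost the call.

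With median-ratio scaling the 120 min value of Myc was 0.15 and that of Oaz1 0.33, the 120 over 30 min value of Sat1 was 0.16, and 3 members were called between 30 and 120 min, as against 4 with limma-voom. No filter called 13 genes for the genotype difference in the 120 min response and a pseudocount of 0.1 RPKM called 1, with Sms there at -0.000138. With annotated copies added Oaz1 was at 0.0304 at 120 min, and its genotype difference at 120 min was -0.16 and that of Sms at 30 min 0.0270. With 30 min as the reference time, the genotype differences of Srm and Oaz1 were -0.18 and -0.14. The cause was not tested.

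The replicate numbers were not taken to pair the libraries in the main fits. The differences between replicates 1 and 2 correlated across genes between the 4 groups at 0.037 to 0.230. All were positive, and only that of WT at 30 min with Ikaros-Zn4-/- at 0 min (0.037) was below 0.1. What replicates of the same number share was not tested. With a replicate block 3484 genes were called at 30 min, and the calls there among the 8 genes went from 4 higher and 0 lower to 5 and 1, with Oaz1 (0.62, adjusted p = 0.00593) and Sms (-0.37, adjusted p = 0.0457) added. The block added Odc1 (1.0), Srm (-0.48) and Oaz1 (-0.43) between 30 and 120 min, 4 members in all, and Srm (0.42, adjusted p = 0.0345) between the genotypes, 3 in all. The 120 min value of Oaz1 was 0.19 with the block. The block takes both 120 min libraries as replicate 2, on which the labels of the mutant one disagree.

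Leaving out 1 library at a time gave 2 to 4 members and 779 to 2316 genes called at 30 min, 4 to 5 and 5323 to 7385 at 120 min, 0 to 3 and 3339 to 5769 between 30 and 120 min, and 0 to 2 and 706 to 1036 between genotypes. For the genotype difference in the 30 min response 0 to 1 genes were called. The fewest genes at 30 min came without replicate 2 of WT at 0 min, and the fewest between 30 and 120 min without the mutant library at 120 min. Myc ranged from -0.0394 to 0.25 at 30 min, from -0.75 to 0.0158 between 30 and 120 min and from -0.0360 to 0.21 between genotypes. Oaz1 ranged from -0.17 to 0.0619 at 120 min and Azin1 from -0.23 to 1.05 between 30 and 120 min. Genotype differences in the 30 min response ranged from -0.12 to 0.78 for Odc1, -0.17 to 0.0675 for Sms and -0.16 to 0.0547 for Sat1, and in the 120 min response from -0.38 to 0.20 for Myc and -0.10 to 0.13 for Sms. With 1 library per genotype at 120 min, no spread could be measured there, and the lowest genes, Amd1 and Sms, rest on the fewest reads.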
